A study of Sus scrofa with 20 samples.

Results

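Albumin and a set of apolipoproteins, the secreted carrier proteins of the liver, were followed in RNA-Seq counts from testis and liver of boars. The set was chosen by gene symbol, with no measured value in the rule: ALB, TTR, AHSG, APOA1, APOA2, APOA4, APOB, APOC3 and APOE. The counts are given per RefSeq transcript ID, and a symbol was attached where the accession, without its version, matched a RefSeq gene table of the pig assembly Sscrofa11.1. Of the 21755 reference IDs, 6654 received a symbol in this way, and 6 of the 9 symbols were found, each with 1 ID. These were ALB (NM_001005208.1), APOA1 (NM_214398.1), APOA2 (NM_001186294.1), APOA4 (NM_214388.1), APOC3 (NM_001002801.1) and APOE (NM_214308.1). TTR, AHSG and APOB were not analysed here. In the same table APOA4, APOC3 and APOA1 follow one another directly on 1 chromosome, and APOE lies on another beside APOC4 and APOC2.

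Albumin is the main protein of blood plasma and is made by hepatocytes. It binds fatty acids, bilirubin and steroids, androgens among them. Apolipoproteins coat the lipid particles of the blood. APOA1 and APOA2 are proteins of high density lipoprotein. APOA4 is made in intestine and liver and travels with chylomicrons and high density lipoprotein, APOC3 slows the clearance of triglyceride-rich particles, and APOE is the ligand through which remnant particles enter the liver by the LDL receptor. Unlike the others, APOE is also made by many cells outside the liver, macrophages and steroid-producing cells among them.

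The libraries came from 10 Duroc x F2 boars labelled as 116 days old, an average age at slaughter, the F2 being F1 Leicoma x German Landrace crossed with Large White. The study chose these boars from a larger pool for extreme androstenone levels in their fat, 5 high and 5 low. This gave 5 testis and 5 liver libraries for each group, 20 in all. Androstenone is a testicular steroid that is broken down in liver and causes boar taint. The boars were untreated and differed in a measured trait, so the groups are not a perturbation, and the labels do not say which testis and liver belong to the same boar.

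The testis libraries held 6161397 to 15975386 counts each and the liver libraries 5796973 to 26783002. Levels are given as CPM, the counts of a reference ID scaled to a common library total, and 3 counts amount to 0.112 to 0.518 CPM in a liver. The summed level of 3 hepatocyte markers found in the files (HPX, CYP2E1 and TAT, of 10 listed) was 6712 to 29861 CPM in the libraries labelled liver and 1.04 to 9.97 CPM in those labelled testis. The sum of the 4 Leydig cell markers found (CYP17A1, INSL3, LHCGR and HSD3B1) showed the opposite, with 998 to 4678 CPM in testis and 1.07 to 15.9 CPM in liver. Of these, HSD3B1 was not lower in liver, with a log2 difference, liver over testis, of 0.70 (SE 0.37). Among the livers the share of the library's filtered reads that had been counted on a reference ID, called the mapped share below, ranged from 39.8% to 59.3%, and among the testes from 42.2% to 49.4%.

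In liver the 6 genes together took 10.8% ± 1.98 (SD, n = 10) of all counts, and in testis 0.00833% ± 0.00349 (SD, n = 10). The lowest summed share of a liver was 8.28%, in high 4, the median 10.8% and the highest 14.4%, in low 5. Exact binomial 95% intervals around a liver's summed share were at most 0.0255 percentage points wide on either side, so the differences between livers were larger than counting error, which is all these intervals cover. ALB alone accounted for between 71.1% and 90.3% of the counts of the 6 genes in a liver. These are shares of reads that were not corrected for transcript length and so do not rank the genes by number of transcripts.

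ALB took 6.02% of all counts in its lowest liver, 8.26% at the median and 13.0% in its highest, and by count it was between the 1st and the 3rd reference ID of every liver. For APOC3 the lowest, median and highest shares were 0.629%, 0.923% and 1.29%. APOA4 spanned 0.152%, 0.821% and 1.90%. The range was thus narrow for APOC3 and wide for APOA4, although the medians lay close to each other. APOE took between 0.0365% and 0.596% with a median of 0.135%. The shares of APOA1 went from 0.0474% to 0.173% and those of APOA2 from 0.0227% to 0.230%. APOA1 and APOA2 thus both received fewer reads than APOC3 or APOA4 in nearly every liver. The exception was low 2, where APOA1 (0.173%) and APOA2 (0.230%) passed APOA4 (0.152%).

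**Figure D1:**
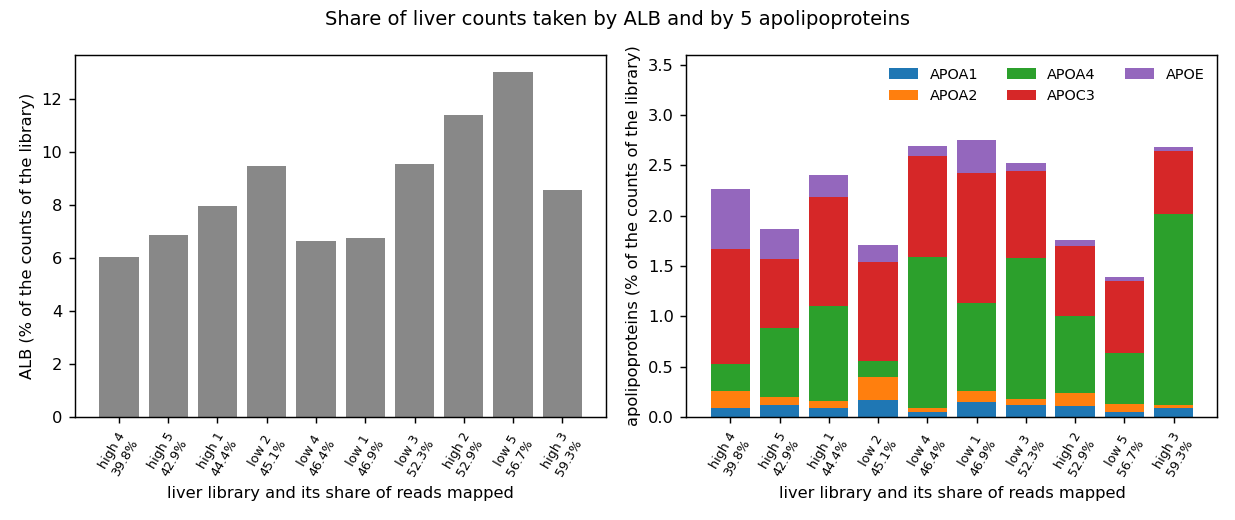
Share of the counts of each of the 10 liver libraries taken by ALB (left, percent, grey bars) and by the 5 apolipoproteins (right, percent, stacked bars), with the libraries ordered by the share of reads mapped that is printed under each name. ALB goes from 6.02% in high 4 to 13.0% in low 5, and the APOE segment shrinks from 0.596% in high 4 to 0.0365% in high 3.

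The livers differed from each other far more in some of these transcripts than in others. On the log2(CPM + 0.5) scale, with CPM scaled by the TMM method (a correction for differences in library composition), the SD over the 10 livers was 1.23 for APOE and 1.14 for APOA4. It was 0.93 for APOA2, 0.62 for APOA1, 0.51 for ALB and 0.31 for APOC3. Of the 5362 reference IDs with a mean of at least 10 CPM in liver, 97.7% had a smaller SD than APOE and 96.7% a smaller one than APOA4, whereas 52.5% lay below ALB and 15.0% below APOC3. These IDs were not matched to the 6 genes in level. Among them APOC3 ranked with the steadier, and its gene's direct neighbour APOA4 with the most variable.

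APOA2 and APOA4 were high in different livers. APOA2 had its highest level in low 2 (2381 CPM), the liver in which APOA4 was lowest (1575 CPM), and its lowest level in high 3 (305.0 CPM), where APOA4 was highest (25581 CPM). These are also the 2 most deeply sequenced livers, with 20765353 and 26783002 counts. High 4, with the fewest counts (5796973), held 1656 CPM of APOA2, second to low 2, and 2701 CPM of APOA4, lower than in every other liver but low 2.

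The first comparison asked whether these carrier genes differed between livers of boars with high and with low androstenone. No difference was found for any of the 6. ALB was measured at 68968, 116924, 115127, 59772 and 60171 CPM in high 1 to 5. In low 1 to 5 it was measured at 65049, 97840.5, 88581, 56149 and 159518 CPM. The groups overlapped along most of their range, and the highest and the lowest liver were both of the low group. The fitted log2 fold change of ALB, high over low, was -0.15 (SE 0.43).

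APOE gave the largest fitted difference of the 6, with a log2 fold change of 0.70 (SE 0.65). Its levels were 1824, 599.8, 491.7, 5917 and 2678 CPM in high 1 to 5. In the low group they were 3120, 1759, 807.0, 843.3 and 541.8 CPM. The highest and the lowest liver were both in the high group, and high 4 alone held 51.4% of that group's summed level. Without high 4 the log2 fold change was -0.02.

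For APOA4 the high livers had 8162, 7847, 25581, 2701 and 6001 CPM. The low livers had 8473, 1575, 12930, 12653 and 6154 CPM. High 3 stood above all others and low 2 below, and the fitted log2 fold change of 0.27 (SE 0.60) became -0.43 without high 3 and -0.00 without low 2. APOC3 was 8449.7 ± 2052 CPM (SD, n = 5) in high and 9576 ± 1801 CPM (SD, n = 5) in low livers, a log2 fold change of -0.18 (SE 0.32). The values of APOA1 were 1025 ± 202 CPM among high and 1096 ± 566 CPM among low livers (SD, n = 5 each) with a log2 fold change of -0.10 (SE 0.38). For APOA2 they were 935 ± 562 and 1062 ± 783 CPM (SD, n = 5 each) with a log2 fold change of -0.18 (SE 0.52). The spread of APOA1 among the low livers, from 401 to 1794 CPM, enclosed all 5 high livers.

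By edgeR's quasi-likelihood test with Benjamini-Hochberg adjustment over 15855 reference IDs, 0 of the 6 passed an adjusted p under 0.05 with a fold change of at least 1.5, and each had an adjusted p of 0.99986. Of all IDs tested in liver 0.0% passed, while 465 (2.93%) had an unadjusted p under 0.05, none of them among the 6. In every one of them the high and low livers overlapped, as they did in all but 0.505% of the IDs tested. An exact permutation test of each gene, two-sided and on log2(CPM + 0.5), gave p between 0.317 for APOC3 and 0.881 for APOA1, where 5 against 5 livers can give no p below 0.00794. With SEs of 0.32 to 0.65 on the log2 scale, differences of the size fitted here could not be told from 0, nor were they shown to be absent.

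**Figure D2:**
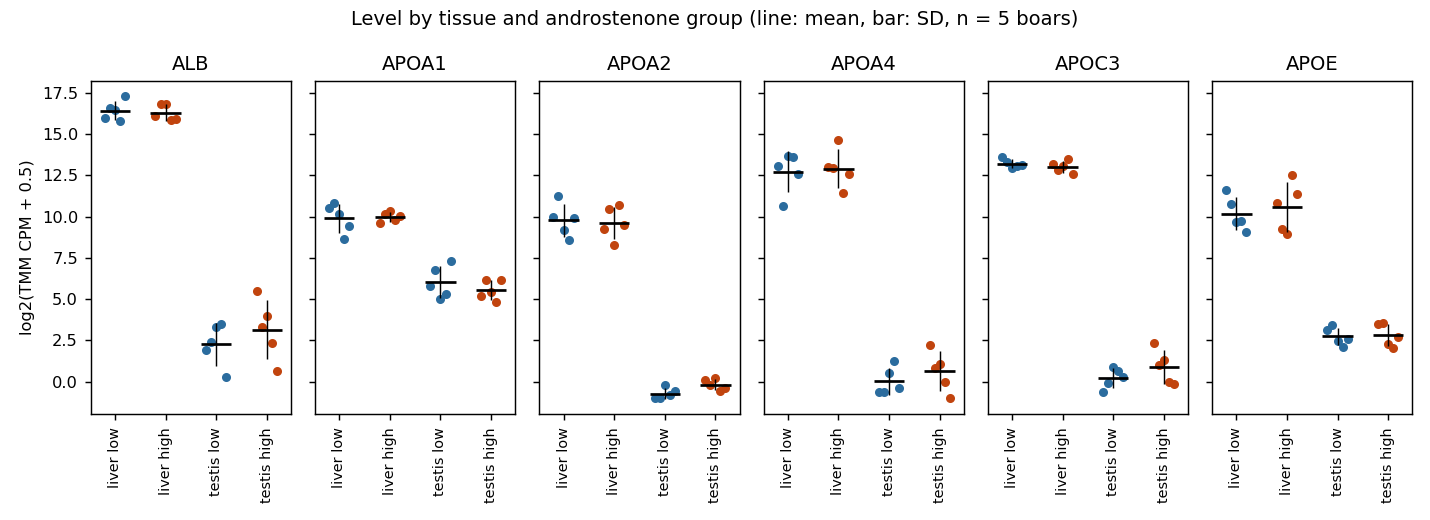
Level of each of the 6 genes as log2(CPM + 0.5) in the low (blue) and high (red) androstenone libraries of liver and testis, with CPM scaled by TMM within each tissue. Points are libraries, lines group means and bars the SD (n = 5 per group). The high and low points overlap in both tissues for all 6 genes, and every liver point lies above every testis point of the same gene.

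The second comparison set the same levels against the mapped share of the liver libraries. The level of APOE fell and that of APOA4 rose with the mapped share. For each 10 percentage points the fitted level of APOE changed by -1.77 on the log2 scale (SE 0.30, adjusted p 9.9e-04 by edgeR's quasi-likelihood test with the androstenone group as covariate). APOE was measured at 5917 CPM in high 4, the liver with the lowest mapped share (39.8%), and at 491.7 CPM in high 3, that with the highest (59.3%). All 4 livers with a mapped share above 50% had less APOE (491.7 to 807.0 CPM) than the other 6 (843.3 to 5917 CPM).

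APOA4 had a slope of 1.10 (SE 0.39, adjusted p 0.0455). The slope of ALB was 0.67 (SE 0.25, adjusted p 0.0557) and did not pass. The levels of ALB in the livers below a mapped share of 50% were 56149 to 97840.5 CPM, and in the other 4 they were 88581 to 159518 CPM, so the ranges met only in low 2 and low 3. APOA2 had a slope of -0.64 (SE 0.39), APOC3 one of -0.17 (SE 0.22) and APOA1 one of 0.04 (SE 0.29), with adjusted p of 0.236, 0.598 and 0.931.

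In all, 2 of the 6 passed an adjusted p under 0.05, and 28.1% of all IDs tested did so, so a relation to the mapped share was common in these livers and not particular to the carrier genes. The call of APOE held when any 1 liver was left out, with slopes from -2.07 to -1.56 and adjusted p from 3.8e-04 to 0.0079. The call of APOA4 did not hold without low 3 (adjusted p 0.0633), high 3 (0.505), high 4 (0.176) or high 5 (0.0667), and without high 3 its slope was 0.61. ALB passed without low 2 (adjusted p 0.0281) and with the androstenone group left out of the fit (adjusted p 0.0455). With the mapped share as a covariate in turn, the log2 fold change of APOE between the androstenone groups was 0.04 (SE 0.34) in place of 0.70.

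Correlations over the 10 livers, with p-values from a permutation test of 100000 resamples adjusted over the 15855 IDs, gave the call of APOE again, whereas ALB passed by r and APOA4 did not pass. For APOE Pearson's r was -0.89 (p 7.7e-04, adjusted p 0.0148) and Spearman's rho -0.88 (p 0.0016, adjusted p 0.0485). For ALB r was 0.82 (p 0.0042, adjusted p 0.0313) and rho 0.75 (p 0.0179, adjusted p 0.0969). Leaving out high 3 and low 5, the livers farthest from the median mapped share, gave r of -0.86 for APOE and 0.70 for ALB. The TMM factors of high 3 (0.743) and low 5 (0.816) were the lowest of the livers, which raised their CPM. Without TMM factors, the share of counts that ALB took had r of 0.70 and rho of 0.67 over all 10 livers, with no test made. APOA4 had r of 0.62 (p 0.0571, adjusted p 0.15) and rho of 0.59 (p 0.0808, adjusted p 0.218), and r of 0.56 without those livers. Within these families 19.3% of all IDs passed by r and 3.65% by rho.

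**Figure D3:**
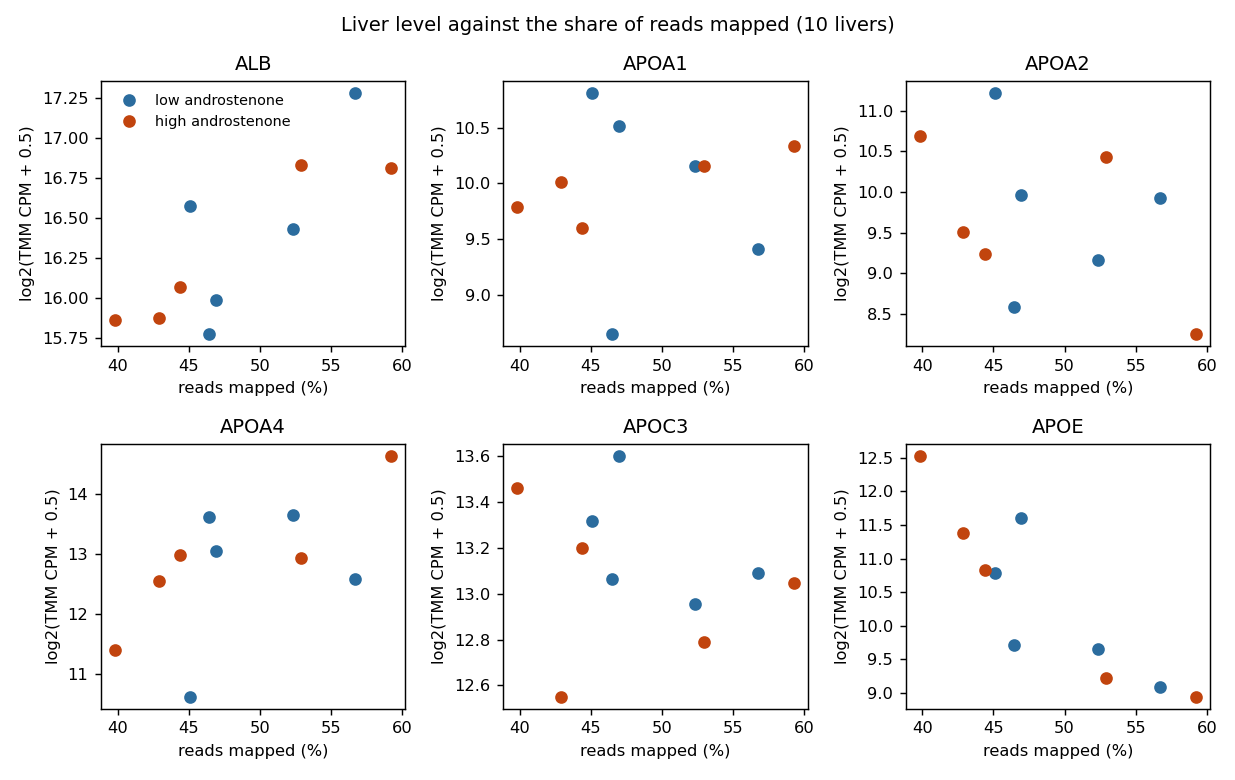
Level of each of the 6 genes in liver as log2(CPM + 0.5) against the share of the library's reads that were mapped (percent), with low androstenone livers in blue and high androstenone livers in red, 1 point per liver. APOE descends from 5917 CPM at 39.8% to 491.7 CPM at 59.3%, and APOA4 goes from 2701 to 25581 CPM between the same livers. The slopes of the other 4 genes did not pass the test.

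The ratio of APOA4 to APOE reads differed widely between livers. In high 4 there were 0.456 counts of APOA4 for each count of APOE, and in high 3 there were 52.0. Between these ends the ratio did not follow the order of the mapped share, with 15.0 in low 4 (46.4%) and 11.4 in low 5 (56.7%). Low 2 was the only other liver with fewer counts of APOA4 than of APOE, at a ratio of 0.895. The summed share of the 6 genes, which ALB dominates, went from 8.28% to 14.4% of the counts, and as a share of all filtered reads from 3.30% in high 4 to 8.17% in low 5. ALB is itself part of the mapped reads, taking between 2.40% and 7.38% of all filtered reads, so its level and the mapped share are not independent measures.

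Other features of the livers differed along the mapped share. The reference IDs of non-coding transcripts (RefSeq prefixes NR and XR, 827 IDs) took 30.5% of the counts in high 4 and 3.53% in high 3. The 5 livers in which these IDs took the largest shares (14.0% to 30.5%) were the 5 with the most APOE. Scaling the libraries without these IDs, an alternative added after the data had been seen, left the slope of APOE at -1.78 (adjusted p 0.0010) and that of APOA4 at 1.09 (adjusted p 0.0484). Of the cell type markers, HPX, the heme carrier of plasma, rose with the mapped share (slope 1.02, SE 0.23, adjusted p 0.0051), and CYP2E1 and TAT had slopes of 0.44 and 0.54 that did not pass. The macrophage and Kupffer cell markers gave 0 of 4 called, those of bile duct 0 of 5, endothelium 0 of 2, stellate cells and fibroblasts 1 of 2 (ACTA2, slope 1.38) and blood cells 1 of 4 (CD79A, slope 1.04). Of all IDs 28.1% were called. The summed markers of macrophages and Kupffer cells, which also make APOE, lay between 340.4 and 551.5 CPM over all livers. The part of these markers and of the non-coding reads in the APOE and APOA4 results was not tested, and in bulk tissue fewer cells of a type cannot be told apart from less RNA per cell.

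Other apolipoproteins were read in the same way, from a list of 11 symbols of which 8 were found. None of the 8 passed in the androstenone comparison of the livers. With the mapped share 3 rose and 1 fell, where 14.6% of all IDs rose and 13.5% fell. APOF, an inhibitor of lipid transfer between lipoproteins, rose with a slope of 1.30 (SE 0.24, adjusted p 0.0016). CLU, the chaperone clusterin, rose with a slope of 1.13 (SE 0.25, adjusted p 0.0041). APOA5, an activator of lipoprotein lipase, rose with a slope of 0.91 (SE 0.27, adjusted p 0.0201). APOD, a lipocalin made in many tissues, fell with a slope of -1.56 (SE 0.34, adjusted p 0.0043). APOC4 and APOC2, whose genes neighbour APOE, had slopes of -0.52 (adjusted p 0.0755) and 0.15 (adjusted p 0.66). APOH, which binds phospholipid and had a median of 7526 CPM in liver, had a slope of 0.55 (adjusted p 0.0755). The median slope of the 8 was 0.45, that of the 6 members -0.06 and that of all IDs -0.03.

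Of the lipoprotein assembly proteins, enzymes and receptors, 9 of 21 symbols were found. LPL, the lipase that APOC3 inhibits and APOA5 activates, fell with the mapped share (slope -2.79, SE 0.48, adjusted p 0.0010), and SAR1B, a GTPase needed for the export of large lipoproteins, rose (0.89, SE 0.19, adjusted p 0.0035). SAR1B (median 364 CPM) and ANGPTL4, an inhibitor of LPL (283 CPM), had the highest mean levels of the list, and ANGPTL4 had a slope of -0.37 (adjusted p 0.413). Between the androstenone groups 0 of 9 passed. PLTP, the phospholipid transfer protein, had a log2 fold change of -0.67 (SE 0.31), with an unadjusted p of 0.0445 and an adjusted p of 0.99986 in edgeR's test.

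Among the plasma carrier proteins akin to albumin in function, 13 of 20 symbols were found and none passed between the androstenone groups. With the mapped share 4 rose and 1 fell, where 14.6% of all IDs rose and 13.5% fell. TF, the iron carrier transferrin, RBP4, the retinol carrier, SERPINA6, the carrier of glucocorticoids, and FETUB rose with slopes between 0.82 and 0.94. A1BG fell with a slope of -0.98 (adjusted p 0.0121). AMBP, the precursor of a lipocalin and a protease inhibitor, had a median of 7332 CPM and a slope of 0.51 (SE 0.19, adjusted p 0.0587).

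Liver transcription regulators, of which 13 of 18 symbols were found, leaned the other way, with 7 that fell with the mapped share and 2 that rose. Of all IDs 13.5% fell and 14.6% rose. CEBPA, FOXA2 and DBP, each known to act on the ALB promoter or on liver genes in general, fell with slopes of -1.63, -1.57 and -1.78. The bile acid receptor NR1H4 and its target NR0B2 rose with slopes of 0.86 and 1.10. HNF4A, a main activator of apolipoprotein genes, had a slope of 0.02 (adjusted p 0.955). In the androstenone comparison it had a log2 fold change of -0.50 (SE 0.23), with an unadjusted p of 0.0438 and an adjusted p of 0.99986 in edgeR's test, and 0 of 13 regulators passed.

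By likeness of level over the 10 livers, the transcripts nearest to ALB among 2112 named ones with a mean of at least 10 CPM were NPC2 (Pearson's r 0.96), FXR1 (0.95) and RPL10 (0.94). Among those nearest to APOE were TMEM57 (0.98) and USF2 (0.97). For APOA1 they were CDH1 (0.86), TYROBP (0.85) and CRK (0.85). These are the highest of many values from livers that also differ in the mapped share, and they are given as a description.

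In testis the 6 genes were found as traces. All 6 were higher in liver over the 20 libraries by edgeR's quasi-likelihood test, with adjusted p of 1.8e-12 or lower, in a comparison in which 75.7% of all IDs passed in either direction and 32.2% were higher in liver. The log2 difference, liver over testis, was 14.20 (SE 0.80) for ALB, 14.00 (SE 0.79) for APOA4, 13.79 (SE 0.53) for APOC3 and 12.80 (SE 0.55) for APOA2. It was 8.996 (SE 0.55) for APOE and 5.07 (SE 0.36) for APOA1, against a median of -0.31 over all IDs. APOA1 and APOE were thus the genes with the smallest differences between the tissues.

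APOA1 had the most counts of the 6 in 9 of the 10 testes, between 28.1 CPM in high 4 and 155.6 CPM in low 5, with a median of 49.5 CPM. APOE lay between 3.70 and 11.1 CPM in testis. The range of ALB was wider, from 0.706 CPM (8 counts) in low 5 to 43.7 CPM (588 counts) in high 1, with a median of 7.11 CPM. High 1 was also the testis with the most APOA4 (4.17 CPM, 56 counts) and APOC3 (4.61 CPM, 62 counts) and the only one in which ALB outnumbered APOA1. High 1 further had the lowest mapped share of the testes (42.2%). Its share of non-coding reference IDs was the largest of them, at 17.2% beside a testis median of 8.29%. The part of these features in its levels was not tested. APOA4 was at 0 counts in high 5, where 3 counts amount to 0.416 CPM, and had 3 counts or fewer in 5 of the 10 testes. APOC3 had 3 counts or fewer in 4 of them. APOA2 had 3 or fewer in 6 and was at 0 in low 1 and low 2, where 3 counts amount to 0.419 and 0.460 CPM.

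Set against ALB in the same library, APOA4 and APOC3 had medians close to each other in the 2 tissues, with no test made. For each 100 ALB counts the median testis had 10.2 of APOA4 and 12.1 of APOC3, and the median liver 10.9 and 10.2, while single testes ranged from 0 to 37.5 for APOA4 and from 4.35 to 100 for APOC3. The values for APOA2 were 3.70 in testis and 1.03 in liver, the former resting on 31 counts in all 10 testes together. APOA1 and APOE were apart from this, with 677 and 98.5 counts for each 100 of ALB in the median testis and 1.21 and 1.65 in the median liver. The lowest testis ratio of APOA1, 83.0 in high 1, was still above the highest liver ratio of 2.25. The lowest of APOE, 25.0 in high 1, was likewise above the highest liver ratio of 9.90.

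The 3 hepatocyte markers were at trace levels in testis as well. Their sum had a median of 5.89 CPM in high and 5.99 CPM in low testes, and most of it came from CYP2E1, at 0.746 to 7.10 CPM. HPX reached 4.54 CPM in high 1, where ALB was highest, and was at 0 in low 5, where ALB was lowest, and in low 2. The other markers did not share this pattern: CYP2E1 was highest in low 3 (7.10 CPM), with 5.13 CPM in high 1. TAT did not exceed 0.315 CPM in any testis. Over the 10 testes ALB had r of 0.50 and rho of 0.49 with the summed markers, with no test made. Whether liver RNA or reads reached the testis libraries was not tested.

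**Figure D4:**
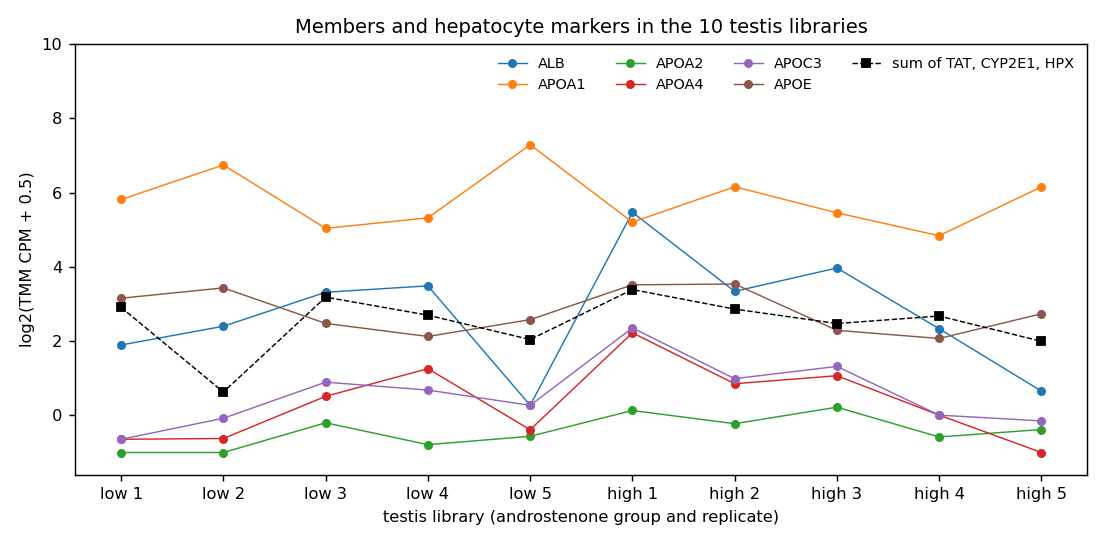
Level in the 10 testis libraries as log2(CPM + 0.5), TMM-scaled within testis, for the 6 genes (coloured lines) and for the sum of the hepatocyte markers TAT, CYP2E1 and HPX (dashed). The lines of ALB, APOA4 and APOC3 peak together in high 1 (43.7, 4.17 and 4.61 CPM), while APOA1 is highest in low 5 (155.6 CPM).

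Between the androstenone groups of the testis, 0 of the 6 passed, as did 0.0% of the 18340 IDs tested, and 1741 (9.49%) had an unadjusted p under 0.05, none of them among the 6. The high and low testes overlapped for all 6 genes and did not for 1.79% of the IDs tested. ALB was at 43.7, 9.62, 15.2, 4.54 and 1.07 CPM in high 1 to 5. In low 1 to 5 it was at 3.22, 4.78, 9.45, 10.7 and 0.706 CPM. High 1 and high 3 lay above all low testes, and the other 3 overlapped with them. The log2 fold change of ALB was 1.35 (SE 0.72, adjusted p 0.559 by edgeR's quasi-likelihood test) and fell to 0.41 without high 1. A likelihood ratio test that took each gene's spread from the trend over all genes, and not from the gene itself, called ALB with an adjusted p of 4.9e-04.

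APOC3 and APOA4 had log2 fold changes of 1.21 (SE 0.58) and 1.10 (SE 0.74) in testis, and 0.49 and 0.29 without high 1. That of APOA2 was 1.37 (SE 0.66) from 22 counts in all high and 9 in all low testes. APOE gave 0.19 (SE 0.34) and APOA1, the only one with a negative sign, -0.64 (SE 0.39). APOA1 was 49.8 ± 19.8 CPM in high and 77.9 ± 52.2 CPM in low testes (SD, n = 5 each), and without low 5 its log2 fold change was -0.20. Exact two-sided permutation tests gave p from 0.0556 for APOA2 to 0.817 for APOE. The blood cell markers found (HBB, PTPRC, CD3E and CD79A, 4 of 6 listed) summed to 20.9 to 71.9 CPM in high and 46.9 to 366.0 CPM in low testes, and 0 of 4 passed. All 4 were fitted lower in high testes, with log2 fold changes from -1.71 (HBB) to -0.69 (CD79A). In edgeR's test 3 of the 4 had an unadjusted p under 0.05, where 9.49% of all IDs did. The part of these markers in the values of the 6 genes was not tested. The median log2 fold change of the 6 was 1.16 in testis and -0.12 in liver, beside -0.02 and 0.01 over all IDs.

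The difference between the tissues in the androstenone contrast was tested as an interaction over the 20 libraries, and 0 of the 6 and 0.0% of 19065 IDs passed. The log2 interaction, liver minus testis, was -1.48 (SE 0.70) for APOC3, with an unadjusted p of 0.0439 and an adjusted p of 0.99999 in edgeR's test, where 4.67% of all IDs had an unadjusted p under 0.05. For ALB it was -1.59 (SE 0.96), and -0.62 without testis high 1. The values for APOA2, APOA4, APOA1 and APOE were -1.67, -0.87, 0.44 and 0.37.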

How the data were processed

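RNA-Seq counts of testis and liver from 10 boars were used, with 1 library per sample. Reads were called with CASAVA 1.7 and mapped by the authors with BWA, against RefSeq mRNA and UniGene transcripts of the assembly Sscrofa9.2. The authors deposited raw counts of reads per reference ID. The treatment of reads that fit several references is not given in the sources used here, so counts of genes with near-identical copies are uncertain. Each of the 21785 lines was read, and 10 IDs listed repeatedly with the same count were used once. Depth was 5796973 to 26783002 counts per library. The mapped share is the total count divided by the filtered reads of the library, whose number came from the study's alignment summary.

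Counts were normalized by TMM and tested with edgeR 4.0.16 (R 4.3.3, quasi-likelihood, IDs with at least 10 counts summed, Benjamini-Hochberg over all tested IDs). The SE is the absolute log2 fold change over the square root of F. Permutation tests, exact for single genes, used log2(CPM + 0.5). Alternatives were DESeq2 1.42.0, RLE, total counts only, other count minimums, other scalings and covariates, a replicate block and leaving out each sample. Not every alternative was run for every comparison, and DESeq2 and total counts only were not run for the mapped share. The procedure was tested on simulated data. Python 3.11.15, numpy 2.4.6, pandas 2.3.3, scipy 1.17.1 and matplotlib 3.10.9 were used. The members and gene lists were chosen with earlier results of these data known. From the lists, the genes named were those with an unadjusted p under 0.05 in the liver androstenone fit, at most 3 a list, and the 2 of highest mean liver CPM. Some genes that the rules would name are not reported here. Genes with an adjusted p under 0.05 on the mapped share that are named beyond these were chosen after their values were seen. No label ties samples to separate litters, housing or extraction days. The p-values within a tissue measure the spread between these boars. Those of the liver against testis and interaction fits treated the 20 libraries of 10 boars as independent samples.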

Additional observations from a re-analysis of the deposited data

Results flagged for a closer look

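APOA4 in liver high 3 (25581 CPM) stood apart from the other 4 high androstenone livers, which had 2701 to 8162 CPM. On the CPM scale its gap to the nearest of them made up 0.761 of the range of the group. This is above Dixon's 95% critical value of 0.710 for 5 samples. Of 28 sets of 5 samples tested this was the only one, and chance alone gives about 1 in 20. The test was not made on the log2 scale, on which high values lie closer together, so the flag holds for the CPM scale only. High 3 also had the most counts (26783002), the highest mapped share (59.3%) and the smallest share of non-coding reference IDs (3.53%) of the livers. The part of these in the level of APOA4 was not tested.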

How the results depend on the processing

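In the androstenone comparisons 0 of the 6 genes passed under every alternative run, except that the likelihood ratio test with the trended dispersion called 1, ALB, in testis. All 6 stayed higher in liver than in testis. With all filtered reads as the denominator the mean summed share was 5.36% in liver and 0.0039% in testis. When 1 sample was left out, the log2 fold change in liver ranged from -0.30 to 0.13 for ALB, -0.30 to 0.15 for APOA1, -0.49 to 0.35 for APOA2, -0.43 to 0.51 for APOA4 and -0.016 to 1.22 for APOE, so each of these changed sign. In testis that of APOE ranged from -0.014 to 0.41, and its interaction from -0.33 to 0.93. For the mapped share, 1 to 3 genes were called when 1 liver was left out, 3 (ALB, APOA4 and APOE) without low 2 and 1 (APOE) without low 3, high 3, high 4 or high 5, and the slope of APOA1 ranged from -0.19 to 0.22. The cause of these shifts was not tested.

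Replicate numbers were not taken to pair the samples, since the labels do not say which testis and liver belong to the same boar. The deviations of same-numbered samples from their group means had a correlation over 0.1 in 2 of 5 numbers between the liver groups. Between the testis groups this held in 3 of 5 numbers. Between liver and testis it held in 4 of 5 numbers of the high group (mean 0.21, against -0.06 for unlike numbers). In the low group it held in 3 of 5 (mean 0.08, against -0.02). Whether same-numbered testis and liver came from 1 boar was not tested. With the replicate number as a block, 1 gene (APOE, adjusted p 0.0489) was called on the mapped share, where the slopes of APOA1 and APOC3 were -0.50 and 0.022, and the log2 fold change of APOA1 in liver was 0.069. The block left 6 of 6 genes called between liver and testis and 0 of 6 in the interaction. In liver 1 of 5 and in testis 2 of 5 high samples correlated best with the low sample of their own number. Between the tissues, 2 of 5 livers in each androstenone group correlated best with the testis of their own number. The block moved the IDs called on the mapped share from 4453 to 641. DESeq2 called 52 IDs in testis and 2 in the interaction, and the trended dispersion 45 in liver and 225 in testis. Without TMM factors the median difference between liver and testis went from -0.31 to -1.28. Traces under 3 counts in testis were limited by depth.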
